A study of Mus musculus with 119 samples.

Results

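The genes that make, store and take up dopamine were followed over 119 RNA-seq libraries of the mouse brain. The group held 6 of the 55291 genes counted, listed by name with earlier results of these data known. All 6 were among the 18932 genes with enough reads to be tested over all libraries. Dopamine is made in 2 steps. Tyrosine hydroxylase (Th) turns tyrosine into L-DOPA, and aromatic L-amino acid decarboxylase (Ddc) turns L-DOPA into dopamine. The vesicular monoamine transporter VMAT2 (Slc18a2) loads it into synaptic vesicles, and Slc10a4 is a vesicle protein of monoaminergic and cholinergic neurons. The plasma membrane transporter (Slc6a3, also called DAT) takes released dopamine back into the cell, and the cytosolic aldehyde dehydrogenase Aldh1a1 clears aldehydes, that of dopamine among them, and makes retinoic acid. The ventral tegmental area (VTA) is a main site of the cell bodies of midbrain dopaminergic neurons, whose axons reach the other regions sampled.

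Punches were taken from the prefrontal cortex (PFC), the dorsal medial striatum (DMS), the nucleus accumbens (NAc), the amygdala (Amy) and the VTA of female and male mice. The mice had received THC, the main psychoactive component of cannabis, at 10 mg/kg or its vehicle by 21 daily injections into the peritoneum, from postnatal day 28 to day 48. No gene was altered in any group. The labels give the strain as C57BL/6J, an age of 11 weeks and a dorsolateral striatal site, whereas the methods of the study name C57BL/6NCrl mice, a later collection and the DMS. Each of the 20 groups held 6 libraries, except the VTA of vehicle-treated males with 5, and each library was 1 region of 1 mouse. No label ties the regions of a mouse together, so regions were compared as if they were independent.

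The 6 genes lie on 5 chromosomes of the GRCm38 genome, the build that the authors call mm10. GENCODE places Th at chr7:142892752-142931128 on the minus strand, Ddc at chr11:11814101-11898144 on the minus strand, Slc6a3 at chr13:73536747-73578672 on the plus strand and Slc10a4 at chr5:73006883-73012955 on the plus strand. Aldh1a1 at chr19:20492715-20643465 and Slc18a2 at chr19:59260896-59296012 share chromosome 19, both on the plus strand. RefSeq windows of 250 bases before the start site, on GRCm38.p6, matched all 6 genes. The windows of 4 genes are printed, because the transcripts of Th, Slc6a3 and Slc18a2 rose and fell together among VTA libraries while Aldh1a1 did so less closely. Capitals mark matches to 5 motifs searched on both strands: the cAMP response element TGACGTCA, the NBRE AAAGGTCA, the bicoid-type TAATCC, the TATA box TATAAA and the GC box GGGCGG.
Th, chr7:142899996-142900245, minus strand: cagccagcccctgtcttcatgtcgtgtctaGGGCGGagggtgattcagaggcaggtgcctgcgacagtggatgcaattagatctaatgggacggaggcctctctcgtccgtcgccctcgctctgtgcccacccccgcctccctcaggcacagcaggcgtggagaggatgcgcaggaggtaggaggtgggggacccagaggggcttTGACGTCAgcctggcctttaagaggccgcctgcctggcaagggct
Slc6a3, chr13:73536497-73536746, plus strand: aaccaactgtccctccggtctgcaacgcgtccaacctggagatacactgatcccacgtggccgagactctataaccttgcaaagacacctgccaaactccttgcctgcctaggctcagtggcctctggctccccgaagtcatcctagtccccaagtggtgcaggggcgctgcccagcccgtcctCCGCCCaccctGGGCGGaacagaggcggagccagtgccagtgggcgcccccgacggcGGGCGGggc
Slc18a2, chr19:59260628-59260877, plus strand: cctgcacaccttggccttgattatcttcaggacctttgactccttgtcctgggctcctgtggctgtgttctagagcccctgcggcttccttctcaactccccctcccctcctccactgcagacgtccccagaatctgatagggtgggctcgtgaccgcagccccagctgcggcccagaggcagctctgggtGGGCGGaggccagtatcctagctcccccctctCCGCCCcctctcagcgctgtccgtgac
Aldh1a1, chr19:20601718-20601967, plus strand: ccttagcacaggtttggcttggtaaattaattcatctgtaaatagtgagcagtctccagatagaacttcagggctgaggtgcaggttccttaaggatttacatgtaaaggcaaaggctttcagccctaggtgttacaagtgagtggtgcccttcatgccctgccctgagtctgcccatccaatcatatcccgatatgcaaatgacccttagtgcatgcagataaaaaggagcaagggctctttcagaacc
The cAMP response element stood in the Th window, at positions -45 to -38 from the start, and was present in 1.55% of 32817 promoter windows of the same length. GC boxes stood in the windows of Th, Slc6a3, Slc18a2 and Slc10a4, as in 32.7% of all windows, and in neither of the 2 windows each of Ddc and Aldh1a1. The NBRE, the motif bound by the Nr4a family to which the dopaminergic factor Nr4a2 belongs, stood in the upstream Ddc window, where it overlapped a TATA box, and in 1.34% of all windows. TAATCC, in 6.25% of all windows, stood in none of the 8 windows of the 6 genes. A match describes these letters only. It was not tested as a binding site.

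Levels are given as CPM, counts relative to the library total after TMM scaling over all libraries, as means ± SD over the libraries of a region. Library totals ran from 3090998 to 77042133 counts, with a median of 22092612. The shallowest was the male vehicle VTA library FTL_371, where Th still stood at 287.4 CPM. In the Amy, 2 libraries went against their labels: FTL_344, labelled female THC, held Y-linked counts and nearly no Xist, and FTL_356, labelled male THC, held the opposite. They stayed in the groups of their labels, and the THC results for Th and Ddc in the Amy are also given without them. The label of the VTA punches was checked against 10 other markers of midbrain dopaminergic neurons, and 10 of 10 were higher there than in each of the other regions. Of all genes, 23.3% to 32.4% were called higher there by the rule given below, depending on the region. The list was chosen with earlier results of these data known. Chrna6, a nicotinic receptor subunit gene, stood at 175.5 ± 45.2 CPM in the VTA and at most 0.336 CPM on average elsewhere. Markers of noradrenergic neurons were near 0 in every region, with a highest regional mean of 0.261 CPM for Dbh, the enzyme that turns dopamine into noradrenaline.

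All 6 genes were far higher in the VTA than in each forebrain region, in every one of 24 comparisons. Th reached 623 ± 174 CPM (SD, n = 23), with a lowest library of 225, a median of 635 and a highest of 837. Across the 96 forebrain libraries its highest value was 13.8 CPM, so the VTA and forebrain libraries did not overlap. The log2 difference of Th from the VTA to the NAc, the closest region, was 6.28 ± 0.11 (SE) and to the PFC, the farthest, 7.96 ± 0.12. Ddc reached 595 ± 160 CPM (lowest 251, median 623, highest 817), and its closest region was the Amy, at a log2 difference of 4.34 ± 0.08.

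The storage and uptake genes separated the VTA just as fully. Slc18a2 stood at 428 ± 114 CPM in the VTA (161, 449 and 602 as lowest, median and highest). Its highest forebrain library held 7.50 CPM. Slc6a3 stood at 1181 ± 334.8 CPM (445, 1245 and 1698) and showed the widest separation of the group, with log2 differences from 10.55 ± 0.12 against the Amy to 13.14 ± 0.15 against the DMS. No forebrain library exceeded 1.78 CPM of Slc6a3. Slc10a4, at 134 ± 37.6 CPM (46.3, 140 and 194), had log2 differences of 2.84 ± 0.11 against the NAc, 2.98 ± 0.11 against the DMS and 4.09 ± 0.12 against the Amy, the smallest of the 6 genes in each, but of 10.28 against the PFC, where Aldh1a1 had the smallest at 5.35. Aldh1a1 stood at 794 ± 159 CPM (427, 806 and 1089), with log2 differences between 5.19 ± 0.12 against the DMS and 6.48 ± 0.13 against the NAc.

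By edgeR's quasi-likelihood test with Benjamini-Hochberg adjustment over all 18932 genes, the largest adjusted p of the 24 comparisons was 7.0e-46, for Slc10a4 against the NAc. A gene was called at an adjusted p under 0.05 and an absolute log2 difference of at least 0.4. The same rule called 31.1% of all genes higher in the VTA than in the PFC, 32.4% than in the DMS, 29.1% than in the NAc and 23.3% than in the Amy, and the median gene differed by at most 0.05 on the log2 scale. The median member differed by 9.12 against the PFC and by 6.21, 6.38 and 6.30 against the DMS, NAc and Amy. In bulk tissue, more cells that carry a transcript and more transcript in each cell cannot be told apart.

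**Figure D1:**
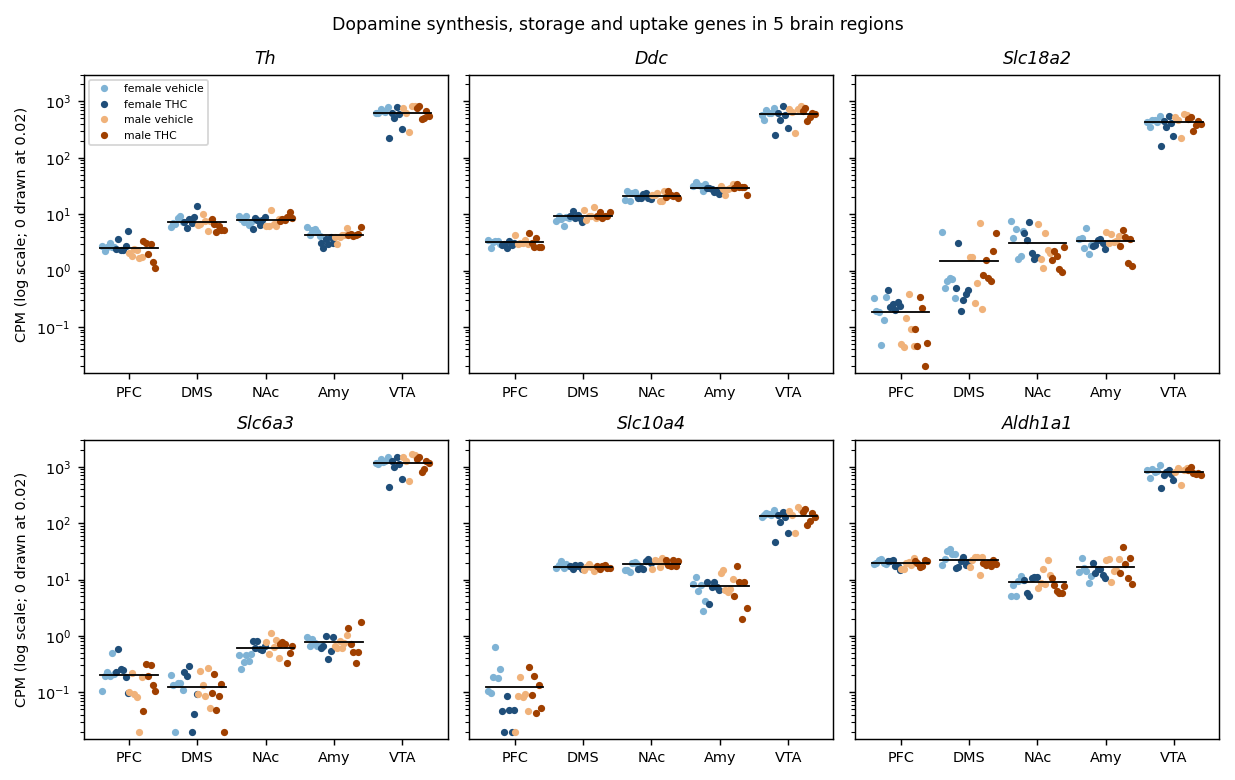
CPM of the 6 genes (log axis) in each of 119 libraries by region, coloured by sex and treatment, with a bar at the mean of each region. Every VTA library lies above every forebrain library for all 6 genes, and Slc18a2, Slc6a3 and Slc10a4 fall below 1 CPM in the PFC.

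Levels were compared between genes only per kilobase of the longest principal transcript. On that scale 3 genes were at like levels in the VTA: Slc6a3 at 341.6 ± 96.9 CPM per kb, Th at 340.7 ± 94.96 and Aldh1a1 at 336.9 ± 67.3. Th exceeded Slc6a3 in 9 of 23 libraries and Aldh1a1 in 13 of 23, so these 3 had no fixed order. Ddc followed, with a median of 308.7 CPM per kb against 360.2 for Slc6a3, and was below Slc6a3 in 23 of 23 libraries. Slc18a2 stood at 113 ± 30.1 and Slc10a4 at 63.5 ± 17.9 CPM per kb, in that order in all 23. The order of the upper 4 depends on the transcript length used. Per kilobase of all exons merged, Slc6a3 kept 341.6 while Th stood at 263.6, Aldh1a1 at 160.9 and Ddc at 133.5 CPM per kb.

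In the forebrain the 6 genes no longer kept 1 pattern. Th was highest in the NAc, at 7.94 ± 1.52 CPM, and the DMS, at 7.33 ± 1.98, which did not differ (log2 difference 0.13, 95% interval -0.08 to 0.34). It was lower in the Amy, at 4.23 ± 0.94 CPM, and lowest in the PFC, at 2.51 ± 0.80. Ddc took another order, with 29.4 ± 4.09 CPM for the Amy, 21.3 ± 2.72 for the NAc, 9.28 ± 1.61 for the DMS and 3.16 ± 0.53 for the PFC. Each step of that order was called, the smallest being 0.47 ± 0.08 (SE, log2) from the NAc to the Amy. Per kilobase, Ddc thus stood at 14.6 CPM in the Amy against 2.31 for Th.

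Slc6a3 and Slc18a2 were close to the detection limit in the cortex. Slc6a3 stood at 0.77 ± 0.31 CPM in the Amy and 0.60 ± 0.21 in the NAc, which did not differ beyond their spread (0.39, -0.01 to 0.80, log2), and at 0.20 ± 0.13 in the PFC and 0.13 ± 0.08 in the DMS. The last 2 were not called apart by edgeR (adjusted p = 0.19) but were by DESeq2 (adjusted p = 0.029). Slc6a3 had no read in 1 PFC and 3 DMS libraries, which allows up to 0.165 CPM, a limit from counting error alone. Slc18a2 stood at 3.33 ± 1.11 CPM in the Amy, 3.11 ± 2.03 in the NAc, 1.46 ± 1.77 in the DMS and 0.18 ± 0.13 in the PFC. Its spread in the striatum exceeded that of the other genes, with DMS libraries from 0.19 to 7.03 CPM around a median of 0.69.

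Aldh1a1 was the forebrain gene with the least contrast. It stood at 21.9 ± 5.36 CPM in the DMS, 19.5 ± 2.52 in the PFC and 16.4 ± 6.70 in the Amy, 3 regions that were not called apart, and at 9.15 ± 3.79 in the NAc, below each of them. The step from the Amy to the DMS had a log2 size of 0.39, just under the limit of 0.4, and was called with DESeq2 (-0.43), with its size factors in edgeR (-0.41) and with vehicle libraries alone (-0.60). C730002L08Rik, an unnamed transcript on the opposite strand within the span of Aldh1a1, held 79.8% as many counts as Aldh1a1 in the PFC, 17.6% in the Amy and 0.066% in the VTA. Libraries were stranded, but the strand setting of the counting is not given in the sources used here. Its part in the forebrain level of Aldh1a1 was not tested. The near copy Aldh1a7 held 2.02% as many counts in the VTA and 10.4% in the PFC.

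Over the 6 pairs of forebrain regions, 28 of 36 tests of the 6 genes were called, beside 27.5% of all genes for the Amy against the NAc and 50.8% for the DMS against the PFC. The counts came in 2 tables, the PFC and DMS in one and the NAc, Amy and VTA in the other, so differences across the tables cannot be told apart from differences between the sets of libraries. Within the second table alone, 4 of 6 genes were called between the Amy and the NAc.

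Slc10a4 stood at 18.7 ± 3.03 CPM in the NAc and 16.9 ± 1.62 in the DMS, which were not called apart (log2 difference 0.14, -0.07 to 0.35). It stood at 7.78 ± 3.73 in the Amy, with libraries from 2.02 to 17.4 CPM, and at 0.12 ± 0.13 in the PFC. Chat, the enzyme of acetylcholine synthesis, took a like order among these 4 regions, with 27.6 ± 3.58 CPM for the DMS, 18.8 ± 4.28 for the NAc, 8.16 ± 6.39 for the Amy and 0.27 ± 0.16 for the PFC. In the VTA, where Slc10a4 was highest, Chat stood at 0.77 ± 0.39 CPM and 6 of 6 cholinergic markers were lower than in the DMS, NAc and Amy. Of all genes, 58.9%, 54.7% and 46.3% were called in either direction against these regions, and 32.4%, 29.1% and 23.3% were called higher in the VTA.

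Within the Amy, the libraries with more Slc10a4 were those with more Chat. Over the 24 Amy libraries, with group means removed, the correlation of their log2 CPM was r = 0.97 (Spearman's rho = 0.95, both permutation p = 1.0e-05, the smallest that the permutations can give, adjusted p = 2.0e-05 over 16 relations), and r = 0.96 without the 2 libraries farthest from the median of Chat. The choline transporter gene Slc5a7 gave r = 0.95 and Lhx8, a factor of forebrain cholinergic neurons, r = 0.96. The relation to Chat held in the NAc (r = 0.84, rho = 0.84, adjusted permutation p = 2.0e-05 for both) and in the DMS (r = 0.75, rho = 0.74, adjusted permutation p = 7.1e-05 and 6.4e-05). In the PFC, where Slc10a4 was near 0, r = 0.56 fell to 0.30 without 2 libraries, so it rested on those. These relations were chosen after values were seen. All counts of a library share its depth and punch.

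**Figure D2:**
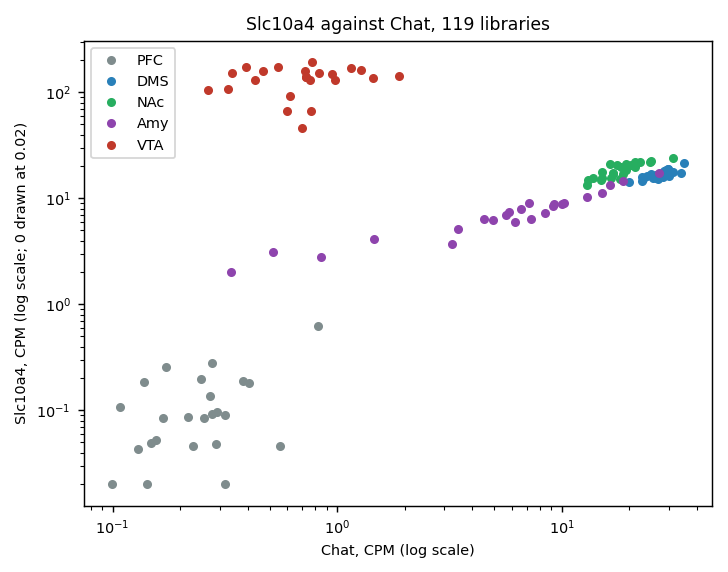
Slc10a4 CPM against Chat CPM (both log axes) in 119 libraries, coloured by region. The Amy libraries spread from 2.02 to 17.4 CPM of Slc10a4 along a rising line with Chat, while the VTA libraries hold at least 46.3 CPM of Slc10a4 at low Chat.

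The genes around the pathway shared the VTA rise only in part. Of 6 genes for tetrahydrobiopterin, the cofactor of Th, 5 were called higher in the VTA than in the PFC, the DMS and the NAc, and 4 than in the Amy. In that order, 31.1%, 32.4%, 29.1% and 23.3% of all genes were called higher. GTP cyclohydrolase (Gch1), which makes the cofactor in its first step, stood at 32.5 ± 9.35 CPM in the VTA and between 0.58 and 1.03 elsewhere. Qdpr, which recycles the cofactor, stood at 466 ± 53.2 CPM in the VTA against 201 ± 15.5 in the DMS, the next highest region, while Pts was called in none of the 4 comparisons. The median of the 6 genes differed by 1.56 to 2.25 on the log2 scale, beside at most 0.05 for all genes. The summed level of oligodendrocyte markers also differed, with group medians of 14647 to 16750 CPM in the VTA and 3375 to 4851 CPM in the Amy. The part of these cells in the levels of the cofactor genes was not tested.

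The genes of dopamine breakdown moved less. Of 9 genes tested (of 10 listed), 4 to 6 were called higher in the VTA, depending on the region, as were 23.3% to 32.4% of all genes. The monoamine oxidase gene Maoa stood at 70.5 ± 6.39 CPM in the VTA and 43.0 ± 3.90 in the Amy (log2 difference 0.72 ± 0.03). The median of the list differed by 0.39 to 0.59 on the log2 scale, beside at most 0.05 for all genes. Genes of the serotonin system, which also uses Ddc and Slc18a2, were uneven within the VTA. Tph2, the enzyme of serotonin synthesis in neurons, had a median of 0.90 CPM there but reached 70.5 CPM in FTL_377, a male THC library, which also had the highest ratio of Ddc to Slc6a3 (0.577) and of Slc18a2 to Slc6a3 (0.413) of the 23. The part of serotonergic cells in these ratios was not tested.

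Within the VTA the 6 genes rose and fell together from library to library. The highest library held 3.25 to 4.18 times as much as the lowest for Th, Ddc, Slc6a3, Slc18a2 and Slc10a4, and 2.55 times as much for Aldh1a1. The same 3 libraries were the lowest for all 6 genes: FTL_363 and FTL_368, both female THC, and FTL_371, male vehicle. Slc6a3 was at 445 CPM in FTL_363, 551 in FTL_371 and 613 in FTL_368, against 813 or more in the other 20. The summed level of the 10 other dopaminergic markers was low in the same libraries, at 807, 866 and 858 CPM beside a range of 1067 to 2290 elsewhere. The summed level of the 5 glutamatergic markers was 322.6 CPM in FTL_363, 411.6 in FTL_371 and 371.8 in FTL_368, beside a range of 149.4 to 361.7 elsewhere. That of the GABAergic markers was 1129 CPM in FTL_363 but 383.2 in FTL_371 and 454.8 in FTL_368, beside 557.6 to 1162 elsewhere. The 3 libraries were thus not alike in all markers. The library total of FTL_371 was 3090998 counts, and those of FTL_363 and FTL_368 were 18165617 and 14625637.

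With group means removed, the 10 pairs among Th, Ddc, Slc6a3, Slc18a2 and Slc10a4 had correlations of log2 CPM from r = 0.96 to 0.99 over 23 libraries (Spearman's rho 0.94 to 0.98). The 5 pairs with Aldh1a1 had r from 0.84 to 0.90 (rho 0.78 to 0.83). All 15 pairs passed (two-sided permutation test, adjusted p = 1.0e-05 for each r, the smallest that the permutations can give, and at most 2.0e-05 for rho). Without the 2 libraries farthest from the median the ranges were 0.92 to 0.98 and 0.64 to 0.78. Within single groups the median r of the 15 pairs lay between 0.91 and 0.99. Library depth, which all genes of a library share, had r from 0.40 to 0.53 with the 6 genes (adjusted permutation p = 0.068 for each) and rho from 0.10 to 0.31.

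Ratios between the genes were held more tightly than their levels. The ratio of Th to Slc6a3 had a coefficient of variation of 5.42% over the 23 libraries, that of Slc10a4 5.44%, of Slc18a2 5.55% and of Ddc 6.87%, while Aldh1a1 had 18.6%. The ratio of Aldh1a1 to Slc6a3 ran from 0.514 in FTL_372, the library with the most Slc6a3, to 0.959 in FTL_363, the one with the least. Against Slc6a3 on the log2 scale the slopes were 0.98 for Th, 0.94 for Ddc, 0.92 for Slc18a2 and 0.98 for Slc10a4, and 0.56 for Aldh1a1. Aldh1a1 thus fell by less than the other 5 genes in the libraries where they were low. Among all genes, those most like the mean of the 6 over the VTA libraries were Chrna6 (r = 0.98), the kinase gene Prkca (0.97) and the dopamine receptor gene Drd2 (0.97), and those most like Aldh1a1 were Cnpy1 (0.94), the neurotrophin gene Ntf3 (0.93) and Chrna6 (0.92). Over all 119 libraries, which mostly separates the VTA from the rest, the gene most like the mean of the 6 was Kif1c (0.97). The leading gene was En1 for Th and Aldh1a1 (0.97 for both), Mid1ip1 for Ddc (0.97), Foxa1 for Slc6a3 (0.98), Fam167a for Slc18a2 (0.96) and Tacr3 for Slc10a4 (0.96). Of these, En1 and Foxa1 encode transcription factors of midbrain dopaminergic neurons.

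**Figure D3:**
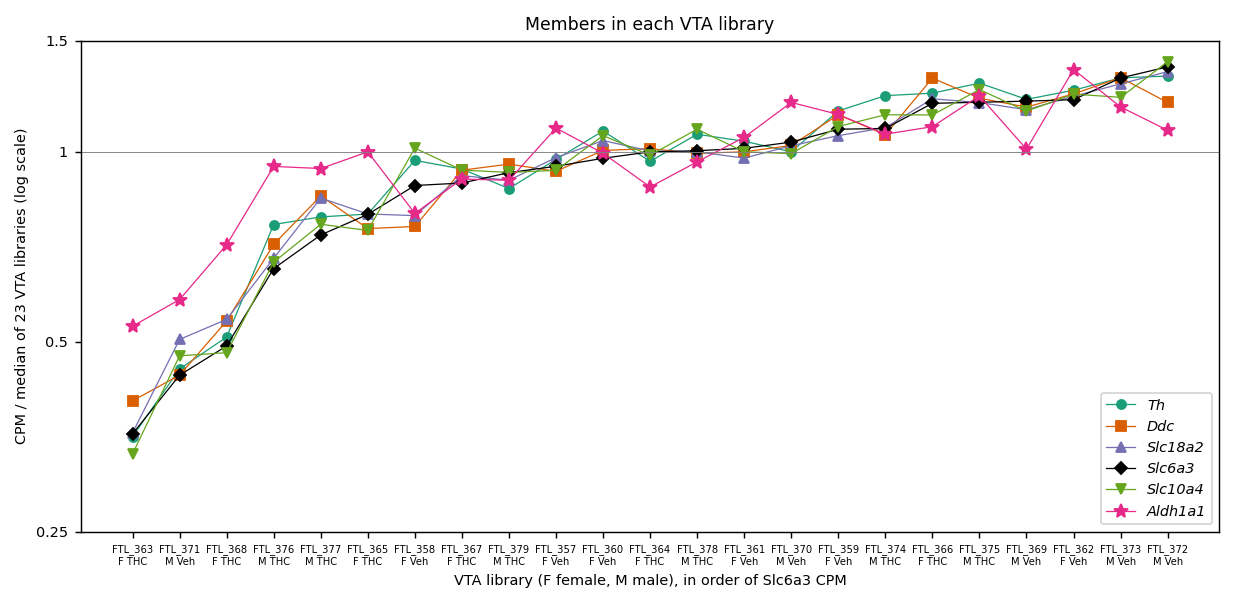
CPM of each gene divided by its median over the 23 VTA libraries (log axis), with libraries in the order of Slc6a3 and labelled by sex and treatment. In the 3 libraries at the left Aldh1a1 stays above the other 5 genes, which run together.

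The study asked what THC given in early adolescence leaves behind in each region and sex. For the female VTA it listed Th, Ddc, Slc6a3, Slc18a2 and Slc10a4 among key drivers of co-expression modules tied to THC and cannabis use disorder. Key drivers are genes whose neighbours in a gene network are enriched in a module. That network analysis was not repeated here, where single genes were tested. In the VTA no member passed the test of THC against vehicle in either sex, nor did any of the genes tested by edgeR (0% called in both). An unadjusted p under 0.05 by edgeR was held by 1421 genes in females (9.02%) and 1012 in males (5.92%). DESeq2 called 0.0206% of genes in females and 0.00327% in males, no member among them. In females, Th had a median of 672 CPM (615 to 795) in 6 vehicle libraries and 551 CPM (225 to 786) in 6 THC libraries, with 5 of 6 THC libraries under the lowest vehicle library. The log2 difference was -0.43 (SE 0.26, 95% interval -0.94 to 0.08, edgeR adjusted p = 0.63). Slc6a3 had medians of 1238 (1101 to 1506) and 1051 CPM (445 to 1486), a log2 difference of -0.37 (-0.88 to 0.14). The groups overlapped for each gene, and the THC libraries spread more widely.

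The other 4 genes in females differed by -0.46 (Slc10a4), -0.33 (Slc18a2), -0.33 (Aldh1a1) and -0.30 (Ddc). In males the 6 log2 differences lay between -0.20 (Slc6a3, -0.72 to 0.32) and -0.01 (Aldh1a1, -0.31 to 0.29), with Th at 287.4 CPM as the lowest of 5 vehicle libraries and 487 CPM as the lowest of 6 THC libraries. The 10 other dopaminergic markers had negative values in 10 of 10 cases in both sexes, with medians of -0.34 in females and -0.19 in males beside about 0 for all genes. The 6 meningeal markers were also negative in 6 of 6 cases in females, with a median of -0.48 and 0 called. The 6 microglial markers were negative in 6 of 6 cases, with a median of -0.37, 5 at an unadjusted p under 0.05 and 0 called. Of all genes in the female VTA, 9.02% had an unadjusted p under 0.05 by edgeR. The sum of the microglial markers ran from 202 to 254 CPM in vehicle and from 153 to 228 CPM in THC libraries. The 7 astrocyte markers were negative in 5 of 7 cases, and their sum ran from 2798 to 3526 CPM and from 2178 to 3542 CPM. Slc17a6 was higher by 0.50 (edgeR adjusted p = 0.51). The part of these cell types in the female values was not tested. With the mean of the dopaminergic markers as a covariate, the female values lay between -0.06 (Aldh1a1) and 0.12 (Ddc). In males they lay between 0.0018 (Slc18a2) and 0.11 (Th). Slc6a3 is left out of the male range because its test statistic was too near 0 to give an error. The covariate measures the same neurons as the members, and its mean log2 CPM was 6.41 in female vehicle and 5.98 in female THC libraries. The fit therefore cannot tell the cause of the female values, which was not tested. Leaving out each library in turn moved the female Th value between -0.59 and -0.28 and the male one between -0.27 and 0.01, with no call.

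In the female Amy, Th was lower after THC, the 1 call among 52 tests of the members over the 10 comparisons. The 6 vehicle libraries held 5.96, 4.34, 5.24, 5.46, 4.75 and 4.19 CPM, and the 6 THC libraries 3.12, 2.48, 3.65, 3.01, 4.01 and 3.08 CPM, the last being FTL_344. Every library labelled female THC was below every library labelled female vehicle. FTL_356, labelled male THC but with the sex-linked counts of a female, held 6.01 CPM, above all 6 vehicle libraries. The library with the fewest Th counts among the 12 labelled female held 69. The log2 difference was -0.64 (SE 0.13, edgeR adjusted p = 0.025), beside 1.57% of 17003 genes called in this comparison and 0.476% called lower. DESeq2 gave an adjusted p of 0.00044, beside 1.74% of genes called. Without FTL_344 the difference was -0.63 and the call was lost (adjusted p = 0.052), and leaving out any one of 6 of the 12 libraries (FTL_333, FTL_335, FTL_339, FTL_340, FTL_342 or FTL_344) lost it too. Over all 12 such fits the differences lay between -0.72 and -0.58 and the adjusted p between 0.0094 and 0.070.

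Beside the Th difference, 3 of 5 markers of glutamatergic neurons were higher in the female THC Amy: Tbr1 by 0.94, Neurod6 by 0.83 and Slc17a7 by 0.76 on the log2 scale. The first 2 encode factors of cortical excitatory neurons and the last a vesicular glutamate transporter. The summed level of the 5 markers ran from 534 to 792 CPM in the vehicle and from 790 to 1120 CPM in the THC libraries. Nr4a2 was also called higher, at 0.595. Slc17a6, another vesicular glutamate transporter gene of the list, had a value of -0.58 (SE 0.29, edgeR adjusted p = 0.26), from 54.6 ± 22.5 to 36.6 ± 12.4 CPM. The part of these cells in the Th value was not tested. Ddc moved the same way without passing the test, from 32.3 ± 3.89 to 26.8 ± 2.42 CPM (log2 difference -0.28, SE 0.09, edgeR adjusted p = 0.096), and its value was -0.23 (adjusted p = 0.19) without FTL_344.

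In the male Amy, Th did not follow. The vehicle libraries held 2.93 to 5.61 CPM around a median of 4.10, and the THC libraries 4.07 to 6.01 around 4.32, the highest being FTL_356. The log2 difference was 0.16 (-0.15 to 0.46, adjusted p = 1.00), and 0.065 (-0.24 to 0.37) without FTL_356. The sexes were compared by the interaction term, which had a size of 0.80 for Th (SE 0.20, unadjusted p = 0.00064) but did not pass adjustment over all genes (edgeR adjusted p = 0.23, and a size of 0.69 with adjusted p = 0.20 without FTL_344 and FTL_356), where 0.0059% of genes were called. Totals differed between these groups as well, from 8713204 to 14939490 counts in male THC and from 20341366 to 76111373 in female THC libraries.

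**Figure D4:**
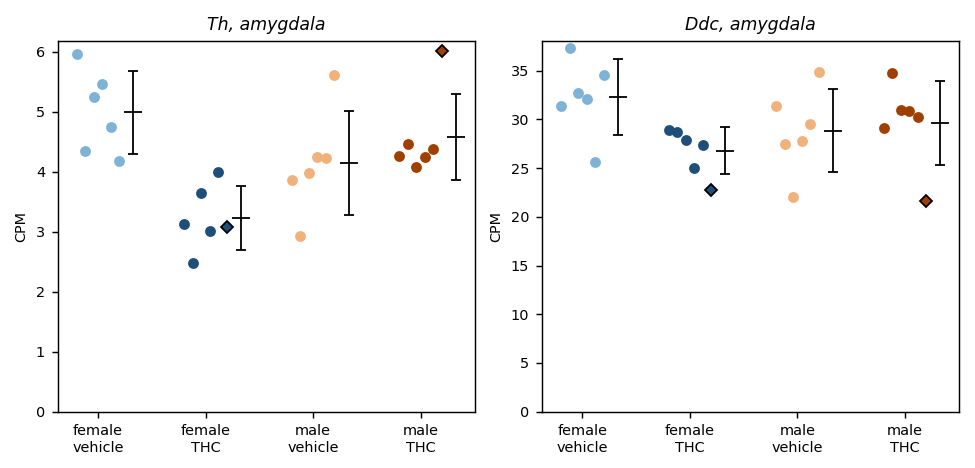
CPM of Th and Ddc in each Amy library by group, with the mean and SD beside the points and diamonds for the 2 libraries whose sex-linked counts go against their labels (FTL_344 and FTL_356). The libraries labelled female THC lie between 2.48 and 4.01 CPM of Th, below those labelled female vehicle at 4.19 to 5.96.

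In the PFC, DMS and NAc no member was called in either sex. The called share of all genes was 0% in 5 of these 6 comparisons and 0.0127% in the female DMS by edgeR, and DESeq2 called 0.0835% in the female DMS, 0.0169% in the male NAc and 0% in the other 4. In the male NAc DESeq2 gave no adjusted p for any of the 6 genes, so none could be called there by that tool. Unadjusted p by edgeR fell under 0.05 for 3 values. Of all genes it did so for 4.61% in the female NAc, 8.9% in the female DMS and 16.7% in the male NAc. Slc6a3 in the female NAc stood at 0.39 ± 0.09 CPM after vehicle and 0.68 ± 0.12 after THC, with no overlap, at 5 to 32 counts a library (log2 difference 0.73, SE 0.22, edgeR adjusted p = 0.99). Aldh1a1 stood at 27.5 ± 6.15 and 19.7 ± 3.24 CPM in the female DMS (-0.47, SE 0.15, adjusted p = 0.35) and at 12.2 ± 5.596 and 7.35 ± 1.84 CPM in the male NAc (-0.74, SE 0.27, adjusted p = 0.23). All remaining values lay between -0.85, for Slc18a2 in the male NAc, and 0.21, and the widest intervals were those of Slc18a2 in the DMS (-2.40 to 0.98 in females).

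Slc6a3, Slc18a2 and Slc10a4 in the PFC and Slc6a3 in the DMS did not pass the filter on low counts in the THC comparisons. The values of Slc10a4 in the female PFC were 0.24 ± 0.20 CPM after vehicle and 0.04 ± 0.03 after THC, with every THC library below every vehicle library. The share of all genes whose groups do not overlap is not given here for any comparison. The 2 THC libraries at 0 allow up to 0.126 and 0.129 CPM. Without the filter on low counts edgeR gave a log2 difference of -2.49 (unadjusted p = 0.00051, adjusted p = 0.60), and DESeq2 gave -2.67 (adjusted p = 0.77), neither of them called.

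Over both sexes, 0 of 26 member tests were called for THC by edgeR, with 2 at an unadjusted p under 0.05 and 0 calls by DESeq2. Of all genes, edgeR called 0% in each region and DESeq2 0.00617% in the Amy. The share of all genes at an unadjusted p under 0.05 by edgeR ran from 4.81% (PFC) to 10.2% (NAc). Between the sexes, 0 of 26 were called by edgeR, with 3 at an unadjusted p under 0.05, and 0 by DESeq2. Of all genes, 6.06% (Amy) to 27.8% (DMS) had an unadjusted p under 0.05 by edgeR. The called share of all genes between the sexes was 2.64% (DMS), 0.25% (NAc), 0.237% (PFC), 0.113% (VTA) and 0.0118% (Amy) by edgeR, and in that order 1.87%, 0.206%, 0.183%, 0.106% and 0.0401% by DESeq2. In the VTA the male values exceeded the female ones by 0.07 (Aldh1a1) to 0.17 (Slc10a4) on the log2 scale, each within an SE of 0.12 to 0.19. The interaction of sex and treatment gave 0 calls in 26 tests by edgeR and 0 in 30 by DESeq2. By edgeR, 4 of the 26 had an unadjusted p under 0.05, as did 5.87% (PFC) to 15.8% (Amy) of all genes. For the interaction DESeq2 called 0.0833% of all genes in the Amy and 0.00967% in the DMS.

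**Figure D5:**
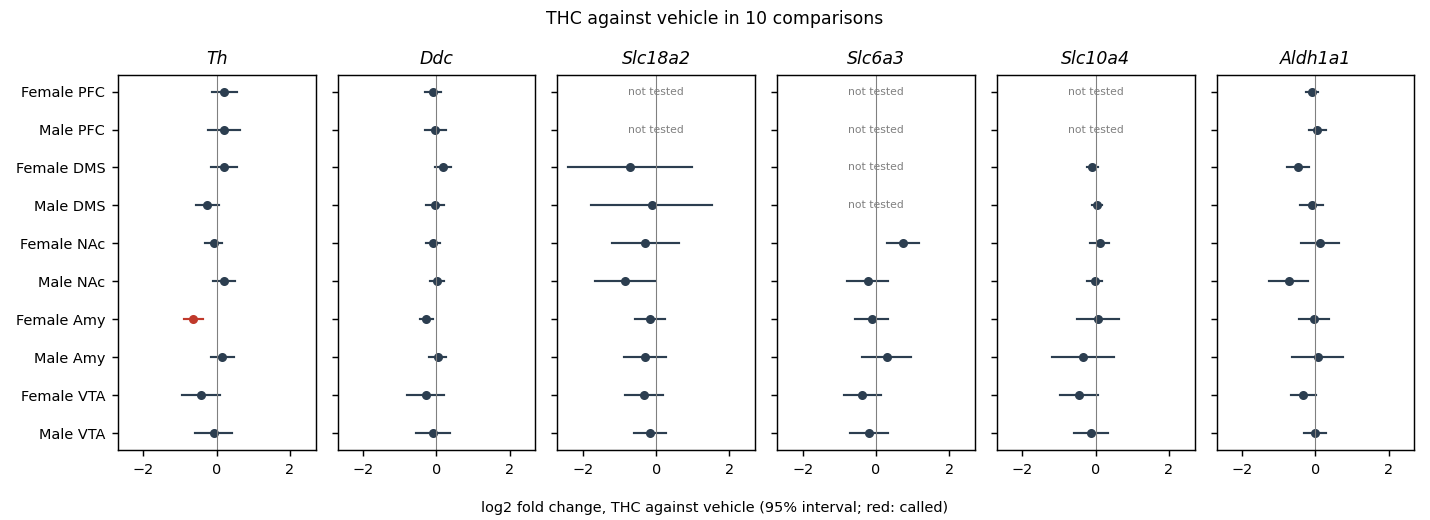
Log2 fold change of THC against vehicle for each gene in the 10 comparisons, with nominal 95% intervals and the called value in red. Only Th in the female Amy is called among the 52 values tested, and the 6 values of the female VTA all lie below 0 with intervals that reach above it.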

How the data were processed

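The authors selected polyadenylated RNA from brain punches, made stranded libraries and sequenced both ends. They trimmed reads with cutadapt 2.9, aligned them to mm10 with STAR 2.7.3a and counted them per gene with RSEM 1.3.1. The annotation and strand setting are not given in the sources used here. By the study's methods, 1 VTA sample of low RNA quality was left out before sequencing, and 1 male VTA library was later removed as an outlier. The latter is not named in the sources used here, and all 11 male VTA libraries were kept. The deposited values are expected counts from RSEM, not normalized, in 2 tables of 55291 genes.

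The expected counts were rounded for testing. Of the members, Slc10a4 had 89 and Aldh1a1 21 of 119 values that were not whole, the other 4 none. Groups came from the sample titles. THC was compared with vehicle in 10 comparisons of 1 region and sex, over both sexes with sex as a covariate, and by the sex by treatment interaction. Regions were compared as means of their 4 groups in 1 fit of all libraries. Genes were kept by filterByExpr, scaled by TMM and tested in edgeR 4.0.16 (R 4.3.3) with the robust quasi-likelihood fit, with Benjamini-Hochberg adjustment over all genes tested. Intervals cover 95%. Log2 CPM used a prior count of 2. Correlations used 100000 permutations. Alternatives were DESeq2 1.42.0, its size factors in edgeR, no filter, 1 fit of the 4 groups of a region, libraries left out, vehicle libraries only, 1 table only and a marker covariate. The code was tested on simulated data.

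Named genes are the 6 members, the 3 genes most correlated with each member or their mean over all libraries and over the VTA libraries, and, from gene lists, the first gene and up to 4 called genes of each. Other names were chosen after their values were seen. The members and lists were chosen with earlier results of these data known. Replicates are separate mice as far as the methods say. The lowest chi-square per gene between libraries of a group was 2.87, so no library was a repeat of another in its group. Libraries of different groups were not compared in this way. Totals of 3090998 to 77042133 counts set the precision of each value.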

Additional observations from a re-analysis of the deposited data

Results flagged for a closer look

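Each of the 6 genes was looked at in each of the 20 groups of libraries. In 9 of these 120 sets a single library stood apart from the others by its gap to the nearest one relative to the range of the set. Chance flags about 1 in 20 such sets if values are normally distributed, which values at few counts need not be. The sets are also not independent, because the 6 genes share libraries. Th in the male THC Amy was 6.01 CPM in FTL_356, the library whose sex-linked counts go against its label, and 4.07 to 4.46 CPM in the other 5. Slc18a2 in the DMS was 4.91 CPM in FTL_285 (female vehicle, the others at most 0.733), 3.14 CPM in FTL_292 (female THC, the others at most 0.497) and 7.03 CPM in FTL_301 (male vehicle, the others at most 1.76). The remaining 5 were PFC libraries with 9 to 13 counts of the gene: Slc6a3 at 0.495 CPM in FTL_265 and 0.586 in FTL_268, Slc18a2 at 0.458 in FTL_267 and 0.378 in FTL_276, and Slc10a4 at 0.628 in FTL_264.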

How the results depend on the processing

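Of 97 alternative values of the counts and correlations, 89 kept their direction and their side of the threshold or stayed within 1.5 times. The count of members called for THC fell from 1 to 0 without FTL_344 and FTL_356, and ranged from 0 to 1 when each female Amy library was left out, an alternative added after the data were seen. The count between forebrain regions was 4 with only the table of NAc, Amy and VTA, which holds 1 of the 6 pairs. Of 1000 alternative values of single genes, 961 kept direction and side, 7 lost and 4 gained a call, and 28 turned direction, none of these called. Without FTL_344 and FTL_356 the THC values were 0.031 for Aldh1a1 in the female Amy and -0.038 for Slc6a3 in the male Amy. With the marker covariate they were 0.12 (Ddc), 0.054 (Slc6a3) and 0.093 (Slc18a2) in the female VTA, and 0.11 (Th), 0.082 (Ddc), 0.0018 (Slc18a2), 0.065 (Slc10a4) and 0.080 (Aldh1a1) in the male VTA. Leaving out 1 library, the ranges across 0 were -0.30 to 0.00038 (Slc18a2), -0.12 to 0.25 (Slc10a4) and -0.17 to 0.16 (Aldh1a1) in the female Amy, and -0.27 to 0.0068 (Th), -0.28 to 0.0064 (Ddc) and -0.14 to 0.059 (Aldh1a1) in the male VTA. With vehicle libraries only, Slc18a2 in the Amy against the NAc was -0.12. The cause of these changes was not tested. No paired analysis was possible because the library numbers are unique and do not tie libraries to mice. Depth limits Slc6a3, Slc18a2 and Slc10a4 in the PFC and Slc6a3 in the DMS, at 0 to 13 counts a library.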

Other observations

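The libraries of 1 region were not alike in their Slc18a2, the gene of the vesicular monoamine transporter, outside the VTA. In the NAc it ran from 0.955 to 7.50 CPM, and the genes most like it over the 24 NAc libraries, with group means removed, included Dlx1 (r = 0.94), a factor of forebrain inhibitory neurons, and Myo10 (r = 0.92). In the same libraries Th kept to 5.49 to 11.8 CPM and Ddc to 17.2 to 25.9 CPM. In the Amy, Ddc was most like the glial gene S100b (r = 0.90) and Slc10a4 most like Chat (0.97), Gbx1 (0.96) and Lhx8 (0.96), whereas the closest gene to Th, Itpk1, had r = 0.69. These correlations are descriptions over 24 libraries that share depth and punch, and the regions were picked after values were seen.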
